A study of Mus musculus with 24 samples.

Results

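The Hox genes of 2 hindlimb muscles were examined, the extensor digitorum longus (EDL), a fast-twitch muscle, and the soleus (SOL), a slow-twitch muscle, in mice with and without induction of the reprogramming factors Oct4, Sox2, Klf4 and c-Myc (OSKM) in myofibers. The rule took every row of the count table named Hoxa, Hoxb, Hoxc or Hoxd followed by a number and used no expression value, although the family itself was picked with earlier results of these data known. This gave 39 of 24537 genes, with 11 in the HoxA cluster on chromosome 6, 10 in HoxB on chromosome 11, 9 in HoxC on chromosome 15 and 9 in HoxD on chromosome 2. The edgeR filter on low counts kept 32 of them, among 15478 genes tested.

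Hox genes encode homeodomain transcription factors that give cells their position along the head-to-tail axis and, in the limb, from shoulder or hip to digits. The genes of a cluster are numbered by paralog group, with low numbers at the end of the cluster used early and towards the head, and high numbers at the end used late and towards the tail or the limb tip. Connective tissue cells and myogenic cells of adult muscles keep part of this embryonic pattern, and Hox proteins bind DNA together with TALE homeodomain cofactors of the Pbx, Meis and Pknox families.

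RNA of whole muscles was sequenced from 2-month-old mice of the genotypes Acta1-Cre+/4Fhet (Cre+) and Acta1-Cre-/4Fhet (Cre-), all on regular chow and all given 1 mg/ml Dox in the drinking water over 2.5, 5.5 and 8.5 days. Each combination of muscle, genotype and duration had 2 libraries, 24 in all. Both genotypes carried 1 copy of the Dox-inducible polycistronic OSKM cassette and of a LoxP-STOP-LoxP rtTA, so that the Cre- controls also received Dox but lacked the Acta1-driven Cre that opens rtTA expression in myofibers. The question was whether EDL and SOL differ in their Hox RNAs and whether this difference holds when OSKM is induced. The values are raw counts of reads uniquely aligned to RefSeq exons, with a total of 36088781 to 54679082 per library (median 44243960), so a count of 0 still allows 3 counts, and this bound takes in counting error alone. FPKM here are counts scaled by exon length and by the library's total count, and "called" means an adjusted p under 0.05 in edgeR's quasi-likelihood test together with an absolute log2 fold change over 0.5. The study calls the libraries of a group biologically independent, and the labels do not say whether each came from its own mouse, so the p-values measure the spread between these libraries.

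OSKM RNA marked the Cre+ libraries at 2.5 and 8.5 days but not all of them at 5.5 days. Pou5f1 (Oct4) stood at 17.5 and 70.5 FPKM in Cre+ EDL muscles at 2.5 days and at 76.2 and 57.7 at 8.5 days, against at most 0.0896 in the Cre- EDL libraries, while at 5.5 days the Cre+ libraries held 1.02 and 27.7. In Cre+ SOL muscles it was at 5.02 and 9.62 at 2.5 days, 12.2 and 6.19 at 8.5 days and 0.0785 and 0.387 at 5.5 days, the lower of these inside the range of the Cre- EDL libraries. The summed FPKM of the 4 factors at 5.5 days was 8.43 to 15.4 in Cre+ SOL against 15.7 to 16.1 in Cre- SOL, and 13.1 to 109 in Cre+ EDL against 11.5 to 11.8 in Cre- EDL. edgeR called 4 of the 4 factors higher in Cre+ EDL at 2.5 and 8.5 days and 2 at 5.5 days, and in Cre+ SOL 1 at 2.5 and 8.5 days and 0 at 5.5 days (lowest unadjusted p = 0.152). Every mean over the 3 time points in Cre+ mice therefore holds libraries without clear OSKM RNA. The fibre genes followed the labelled muscle. Fast myosin Myh4 was at 3804 to 7905 FPKM in Cre- EDL and 21.1 to 521 in Cre- SOL, and slow myosin Myh7 at 4.82 to 88.6 and 1848 to 3700. The hindlimb genes Pitx1 and Tbx4 were detected in every Cre- library (from 0.095 and 1.03 FPKM), and the forelimb gene Tbx5 stayed at or below 0.0212 in them.

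Adult muscle held RNA of most Hox genes, and the amounts differed widely. Of the 39 genes, 18 had a mean of at least 1 FPKM over the 12 Cre- libraries, 8 of them in HoxA, 1 in HoxB, 6 in HoxC and 3 in HoxD. Another 14 lay below 1 FPKM. The remaining 7 (Hoxb1, Hoxb13, Hoxc12, Hoxc13, Hoxd1, Hoxd12 and Hoxd13) never exceeded 5 counts in a library, and Hoxb1 and Hoxd1 had no count in any. Both ends of the paralog series were thus sparse, and Hoxa13 at 1.05 FPKM was the highest gene of group 13, which patterns the digits in the embryo.

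Hoxc10, a posterior gene whose RNA marks the hindlimb rather than the forelimb, was the most abundant Hox RNA, with a mean of 33.3 FPKM over the 12 Cre- libraries. Hoxa10 followed at 8.70 and Hoxc9 at 4.67, then Hoxd8 at 4.40, Hoxc11 at 4.26, Hoxa9 at 3.62, Hoxa11 at 3.20 and Hoxa7 at 3.06. In Cre- EDL muscles Hoxc10 ranged from 31.9 to 39.01 FPKM (median 34.9) and in Cre- SOL muscles from 25.2 to 36.9 (median 32.02). The groups overlapped, and the difference (log2 0.25, SE 0.074, adjusted p = 0.0105) passed the p threshold but not the fold threshold. Hoxc9 ranged from 3.17 to 4.76 in EDL and from 3.97 to 6.41 in SOL, also with overlap and without a call (log2 -0.31, adjusted p = 0.0995).

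Summed over the 39 genes, both muscles held nearly the same Hox RNA, 87.5 ± 3.95 FPKM in Cre- EDL and 86.4 ± 2.63 in Cre- SOL (SD, n = 6), but it was divided differently among the clusters. HoxA took 31.7 to 39.9% of the sum in EDL and 24.02 to 30.2% in SOL, and HoxD took 4.88 to 8.50% in EDL and 10.4 to 14.6% in SOL, both without overlap between the 6 libraries of each muscle. HoxC, carried by Hoxc10, took 49.5 to 59.6% and 52.5 to 61.4%, and HoxB 2.26 to 4.86% and 3.01 to 5.69%, with overlap. These shares come from the same libraries and sum to the whole, so they are a description without a test.

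**Figure D1:**
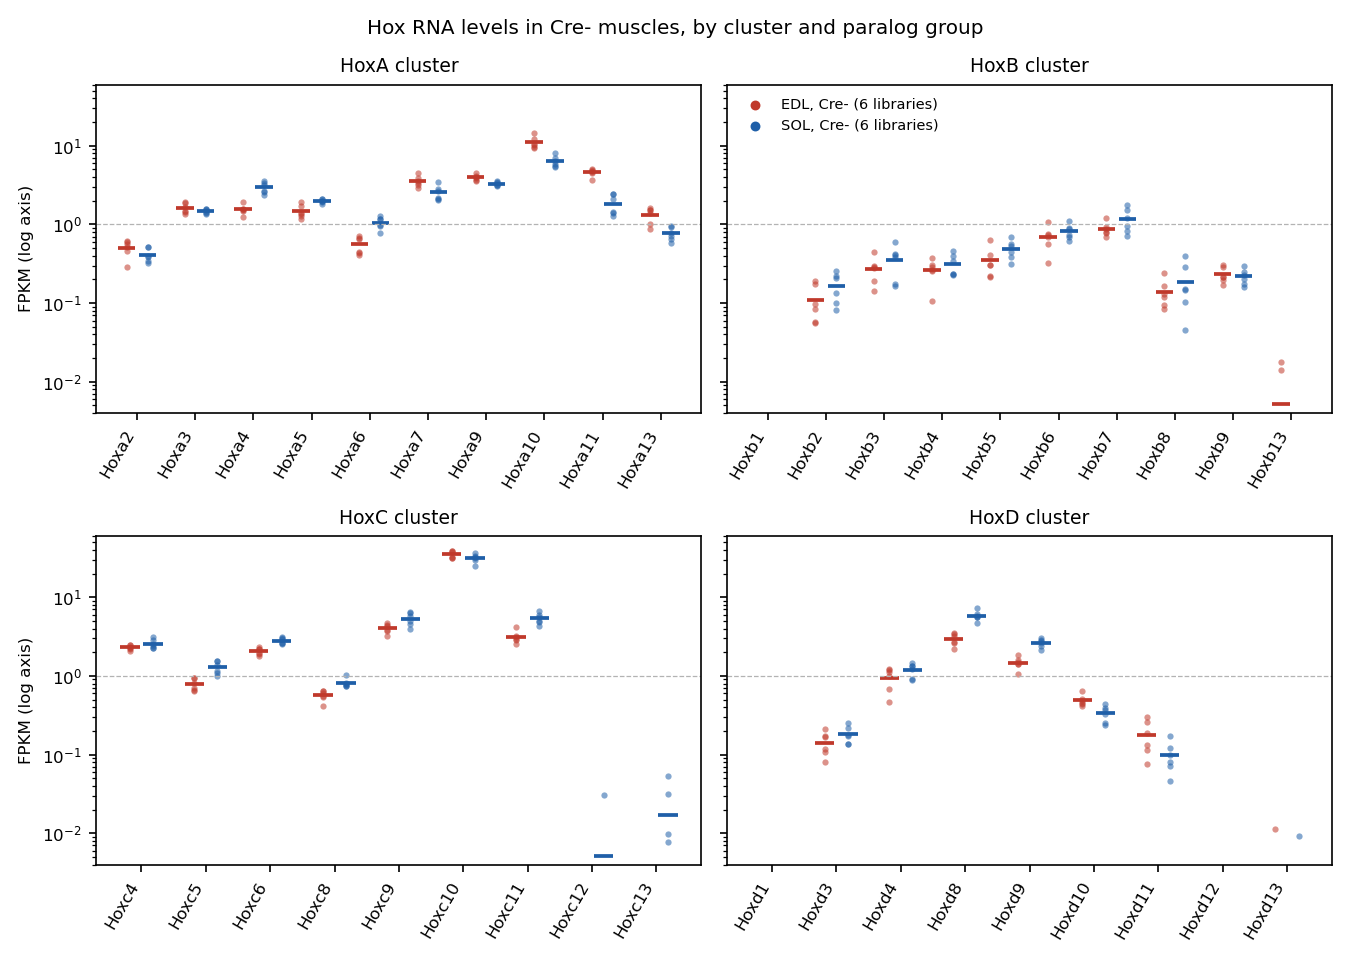
FPKM of Hox genes on a log axis in 6 Cre- EDL (red) and 6 Cre- SOL (blue) libraries, with clusters in panels, genes in order of paralog group and horizontal bars for the means; the dashed line marks 1 FPKM, and libraries at 0 cannot be drawn on this axis. Hoxc10 stands highest at a mean of 33.3 FPKM, and Hoxa11 and Hoxd8 show the EDL and SOL libraries apart in opposite directions.

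EDL and SOL muscles of Cre- mice differed in 12 of the 32 tested Hox genes, 6 higher in EDL and 6 higher in SOL. Of the genes higher in EDL, Hoxa10, Hoxa11 and Hoxa13 with Hoxd10 and Hoxd11 lay towards the posterior end of HoxA and HoxD. Hoxa7 lay in the middle of its cluster, and Hoxa9, between Hoxa7 and Hoxa10, was not called. Those higher in SOL were Hoxa4, Hoxa6, Hoxc5, Hoxc11, Hoxd8 and Hoxd9. Over all 15478 genes tested the same comparison called 24.9%, 11.6% higher in EDL and 13.3% higher in SOL. The median log2 fold change was -0.23 over the Hox genes and -0.02 over all genes. The contrast is the mean over the 3 time points, tested with all 24 libraries in a single fit.

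Within HoxA the sign of the EDL-SOL difference turned between neighbouring genes, being negative from Hoxa4 to Hoxa6 and positive from Hoxa7 to Hoxa13. Hoxa2 and Hoxa3, towards the other end, had positive values (0.38 and 0.22) that were not called. Hoxa11 (chr6:52242105-52245810 in GRCm38, minus strand), which acts with its paralogs in forming the lower leg and forearm, showed the widest difference. It ranged from 3.68 to 5.05 FPKM in Cre- EDL (median 4.64) and from 1.28 to 2.41 in Cre- SOL (median 1.76). All EDL libraries lay above all SOL libraries, and the mean was 2.50 times that of SOL (log2 1.43, SE 0.13, adjusted p = 1.4e-07). Hoxa11os, which is transcribed from the opposite strand and overlaps Hoxa11, moved alike, at 3.55 to 5.32 FPKM in EDL and 1.34 to 3.12 in SOL (log2 1.24, SE 0.135, adjusted p = 1.0e-06). The libraries are stranded, but whether the counting used strand is not given in the sources used here, so reads in the overlap cannot be assigned with certainty.

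Hoxa10 (chr6:52231197-52234939, minus strand), active in the upper leg and in posterior axial patterning, had 9.40 to 14.3 FPKM in Cre- EDL (median 10.4) and 5.40 to 8.04 in Cre- SOL (median 6.17). The groups did not overlap (log2 0.88, SE 0.080, adjusted p = 1.4e-07). Hoxa13, the digit gene of the cluster, had 0.885 to 1.59 FPKM in EDL and 0.588 to 0.968 in SOL. Its lowest EDL library fell inside the SOL range, but EDL was higher in 6 of 6 pairs of the same time point and replicate number (log2 0.85, SE 0.18, adjusted p = 0.00097). Hoxa7 ranged from 2.94 to 4.56 in EDL and from 2.05 to 3.47 in SOL, higher in EDL in 6 of 6 pairs (log2 0.56, SE 0.13, adjusted p = 0.0022). With scaling by library size alone Hoxa7 fell below the fold threshold, at 0.48. Without replicate 2 of Cre- SOL at 8.5 days it stood at 0.44.

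The HoxA genes higher in SOL were Hoxa4 and Hoxa6, which pattern the neck and the upper trunk. Hoxa4 (chr6:52189687-52191703) had 1.23 to 1.95 FPKM in Cre- EDL (median 1.55) and 2.38 to 3.60 in Cre- SOL (median 2.92). Hoxa6 had 0.409 to 0.716 in EDL and 0.780 to 1.28 in SOL. Neither gene overlapped between muscles (log2 -0.84, SE 0.12, adjusted p = 1.9e-05, and log2 -0.84, SE 0.22, adjusted p = 0.0050). The model of Hoxa3 in the table spans Hoxa4, Hoxa5 and Hoxa6 on the same strand, which leaves the assignment of some of their reads uncertain, and Hoxa6 rests on 13 to 44 counts per library in Cre- mice. Over the time points 2.5 and 8.5 days alone its adjusted p rose to 0.0916 (log2 -0.61).

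In HoxD the sign turned between Hoxd9 and Hoxd10. Hoxd8 (chr2:74705489-74707932, plus strand) ranged from 2.21 to 3.53 FPKM in Cre- EDL (median 2.96) and from 4.64 to 7.24 in Cre- SOL (median 5.71), without overlap (log2 -0.90, SE 0.091, adjusted p = 4.6e-07). Hoxd9, a gene of posterior trunk and proximal limb, ranged from 1.07 to 1.83 in EDL and from 2.13 to 3.05 in SOL, again without overlap (log2 -0.75, SE 0.095, adjusted p = 5.8e-06). Hoxd10 and Hoxd11, the next genes towards the limb-tip end, went the other way.

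Hoxd10 had 0.414 to 0.638 FPKM in Cre- EDL (median 0.460) and 0.238 to 0.443 in Cre- SOL (median 0.349), and EDL was higher in 6 of 6 pairs (log2 0.64, SE 0.21, adjusted p = 0.0223). Hoxd11 had 0.0761 to 0.301 in EDL and 0.0465 to 0.172 in SOL, also higher in 6 of 6 pairs (log2 0.93, SE 0.29, adjusted p = 0.0154). The ranges of both genes overlapped between muscles. Both are low, at 17 to 52 and 8 to 45 counts in the Cre- libraries, and their calls were lost without replicate 1 of Cre- EDL at 2.5 days (adjusted p = 0.0629 and 0.0621). In a fit of the 16 libraries of 2.5 and 8.5 days Hoxd11 was not called (adjusted p = 0.0556). Hoxd10 was also lost without replicate 1 of Cre- SOL at 8.5 days, and Hoxd11 without replicate 1 of Cre- EDL at 5.5 days. The sign held in every alternative run.

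The 250 bases before the start of the genes on either side of the HoxD sign change, and of Hoxa11 as the gene that differed most, are shown from RefSeq in build GRCm38.p6. They lie at chr2:74697513-74697762 (plus strand, Hoxd9), chr2:74691641-74691890 (plus, Hoxd10), chr2:74682073-74682322 (plus, Hoxd11) and chr6:52245811-52246060 (minus, Hoxa11). Each runs 5′ to 3′ and ends at the base before the start, and capitals mark the motif matches described next.
Hoxd9: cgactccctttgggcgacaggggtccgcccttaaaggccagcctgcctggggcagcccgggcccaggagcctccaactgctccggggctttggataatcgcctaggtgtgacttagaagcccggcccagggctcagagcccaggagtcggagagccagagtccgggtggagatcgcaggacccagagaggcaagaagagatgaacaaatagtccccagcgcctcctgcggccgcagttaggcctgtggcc
Hoxd10: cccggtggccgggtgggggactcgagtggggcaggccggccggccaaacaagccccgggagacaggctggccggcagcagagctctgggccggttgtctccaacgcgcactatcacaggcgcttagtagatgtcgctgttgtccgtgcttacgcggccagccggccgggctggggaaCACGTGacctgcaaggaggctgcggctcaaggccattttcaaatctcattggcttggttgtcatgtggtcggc
Hoxd11: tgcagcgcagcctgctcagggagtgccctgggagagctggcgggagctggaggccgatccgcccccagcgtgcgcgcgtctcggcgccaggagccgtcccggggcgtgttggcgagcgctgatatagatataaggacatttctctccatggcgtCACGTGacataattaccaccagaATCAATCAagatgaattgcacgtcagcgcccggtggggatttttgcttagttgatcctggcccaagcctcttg
Hoxa11: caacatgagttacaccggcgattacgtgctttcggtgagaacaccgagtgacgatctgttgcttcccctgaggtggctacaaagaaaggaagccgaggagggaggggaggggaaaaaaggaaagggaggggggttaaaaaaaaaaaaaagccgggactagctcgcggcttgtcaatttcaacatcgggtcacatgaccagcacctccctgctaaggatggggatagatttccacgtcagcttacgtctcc

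These stretches were searched for CACGTG (the E-box bound by Myc with Max), ATGCAAAT (the octamer bound by Oct4), TGATTNAT (a composite site of Pbx and Hox), TGACAG (Meis) and TATAAA (the TATA box), on both strands. RefSeq entries were matched for 19 of the 39 Hox genes. CACGTG, which reads the same on both strands, occurred 73 bases before the start of Hoxd10 and 96 before that of Hoxd11, and neither Hoxd9 nor Hoxa11 held any of the motifs. It was found in 3 of the 19 Hox promoters (Hoxd1, Hoxd10 and Hoxd11), against 6.02% of 32851 promoters of the same length. TGATTNAT occurred on the minus strand of Hoxd11 at 73 bases and in Hoxa2, with 2.82% of all promoters holding it. ATGCAAAT was in 0 of the 19 windows and in 1.60% of all, TGACAG in Hoxa2 and Hoxa3 (15.9%), and TATAAA in Hoxa10, Hoxb8 and Hoxd4 (12.4%). The Hox promoters had a median GC content of 59.2% and 13 CpG, against 52.4% and 6 over all promoters. These are matches of letters only, and no binding was measured.

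In HoxC 2 of the 7 tested genes were called, Hoxc11 and Hoxc5, both higher in SOL. Hoxc11 (chr15:102954526-102956701, plus strand) ranged from 2.51 to 4.13 FPKM in Cre- EDL and from 4.37 to 6.75 in Cre- SOL, without overlap (log2 -0.70, SE 0.14, adjusted p = 0.00065). It was the gene of groups 10 to 13 that went against the rest, since 5 of the 7 tested members of these groups were higher in EDL and Hoxc11 was the 1 higher in SOL. Hoxc5, a trunk gene, ranged from 0.637 to 0.949 in EDL and from 0.987 to 1.56 in SOL, without overlap (log2 -0.62, SE 0.13, adjusted p = 0.00076). Hoxc6 and Hoxc8 were also apart, at 1.81 to 2.32 against 2.56 to 3.10 FPKM and 0.410 to 0.644 against 0.736 to 1.03, but were not called (log2 -0.35 and -0.45). In all, 2 tested Hox genes lay above and 8 below in EDL with no overlap of 6 against 6 libraries, where over all tested genes 6.85% and 12.5% did, 19.4% in all.

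By paralog group, 0 of the 16 tested genes of groups 1 to 6 were higher in EDL and 3 were higher in SOL, and of the 9 genes of groups 7 to 9 1 was higher in EDL and 2 in SOL. HoxB gave no call among 8 tested genes by edgeR, with Hoxb5 at an unadjusted p of 0.0461, and none by DESeq2. Their log2 values ran from -0.49 (Hoxb2) to 0.16 (Hoxb9), with standard errors of up to 0.31. These leave some differences of the size seen in HoxA undecided, such as a negative one like that of Hoxa4 for Hoxb2. Hoxa2 and Hoxa3 were at 0.506 and 1.62 FPKM in Cre- EDL and 0.412 and 1.48 in Cre- SOL, with means of 6 libraries each.

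**Figure D2:**
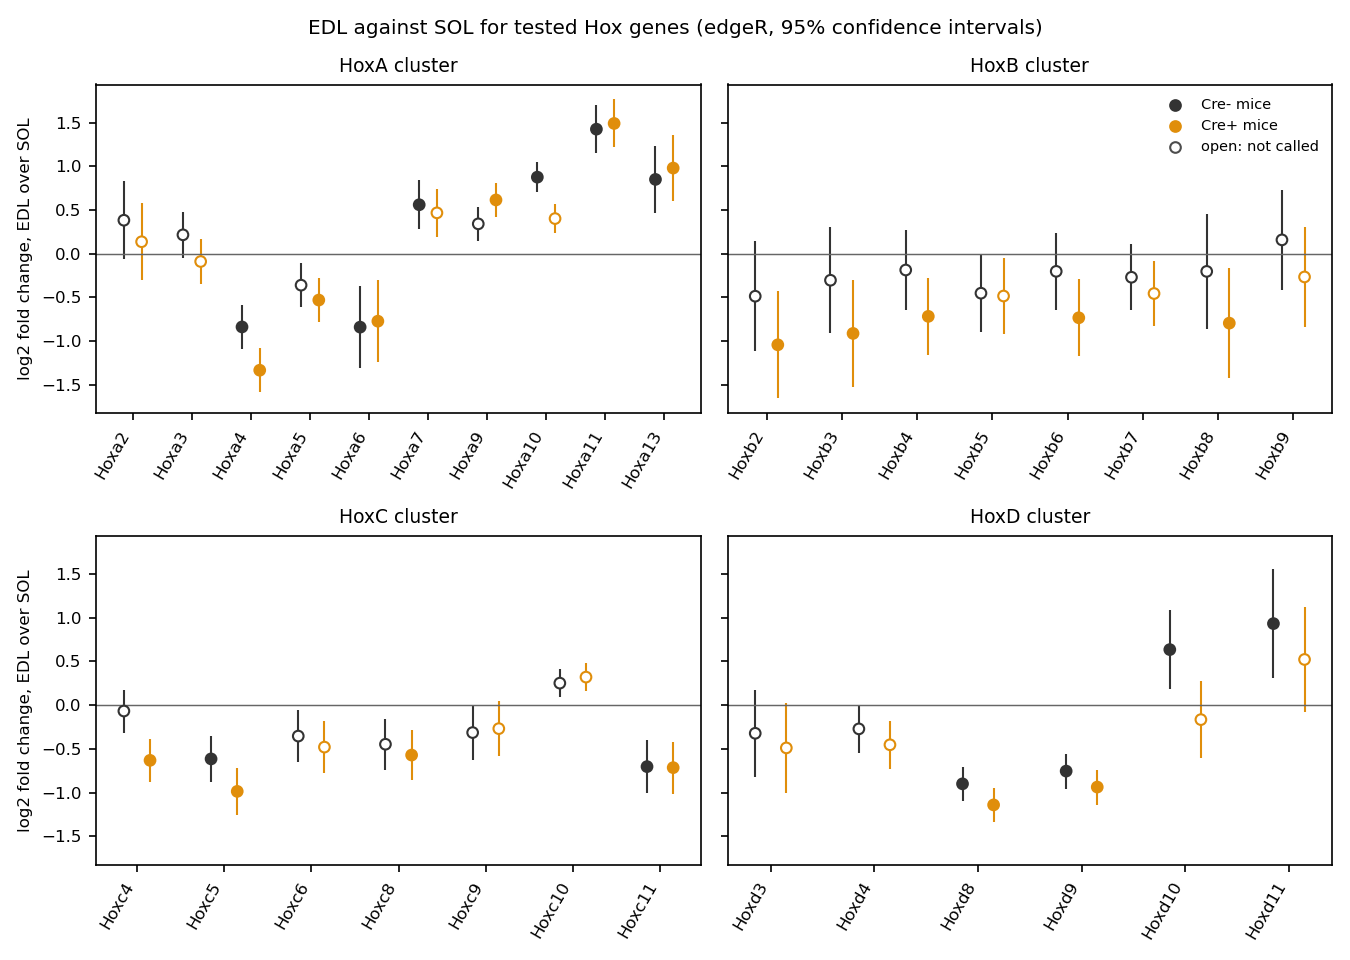
Log2 fold change of EDL over SOL for tested Hox genes, in panels by cluster and in order of paralog group, in Cre- (black) and Cre+ (orange) mice, with 95% confidence intervals; filled points are called and open points are not. In HoxA the values turn from -0.84 at Hoxa6 to 0.56 at Hoxa7 in Cre- mice, and in HoxD from -0.75 at Hoxd9 to 0.64 at Hoxd10.

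Whole muscle holds several cell types with their own Hox patterns, and some of their markers differed between EDL and SOL as well. In bulk RNA, fewer cells of a type and less RNA per cell cannot be told apart. The summed FPKM of 6 satellite cell markers was 15.8 to 22.5 in Cre- EDL and 23.7 to 31.9 in Cre- SOL (3 of 6 lower in EDL, Pax7, Myf5 and Calcr), and that of 5 Schwann cell markers 62.1 to 183 and 25.4 to 106 (5 of 5 higher in EDL). Markers of fibroblasts (441 to 1284 and 433 to 1219, 1 of 8 higher in EDL), endothelium (82.2 to 114 and 101 to 163, 0 of 5 called by edgeR) and smooth muscle (120 to 178 and 120 to 227, 0 of 5) overlapped. Macrophage markers gave 1 of 5 higher in EDL and tendon markers 1 of 5 in each direction. Adipocyte markers were lower in EDL in 5 of 5 (216 to 325 against 371 to 707), erythroid markers higher in 5 of 5, fast fibre genes higher in 8 of 9 and slow fibre genes lower in 8 of 8. Over all tested genes this comparison called 24.9%. The part of these markers in the Hox differences was not tested.

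The EDL-SOL difference was present again in Cre+ muscles, which are separate libraries. There 17 of the 32 Hox genes were called, 3 higher in EDL and 14 higher in SOL, against 27.7% of all tested genes (13.1% higher in EDL and 14.5% higher in SOL). The calls of both genotypes shared 8 genes, Hoxa4, Hoxa6, Hoxa11, Hoxa13, Hoxc5, Hoxc11, Hoxd8 and Hoxd9, all with the same sign. These are 66.7% of the Cre- calls and 47.1% of the Cre+ calls. Of the 32 genes, 29 had the same sign in both genotypes. The same shares over all tested genes were not worked out. Whether Hox genes kept their calls or signs more often than other genes was therefore not tested.

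Hoxa11 in Cre+ mice ranged from 5.07 to 6.35 FPKM in EDL (median 5.39) and from 1.66 to 2.07 in SOL (median 1.97), again without overlap (log2 1.49, SE 0.13, adjusted p = 8.1e-08). Hoxa13 ranged from 1.199 to 1.58 and from 0.573 to 0.848, now without overlap (log2 0.98, SE 0.18, adjusted p = 0.00026). Over 2.5 and 8.5 days alone, the time points with OSKM RNA, both genes were called as well (Hoxa11 1.51, adjusted p = 1.11e-06, and Hoxa13 1.00, adjusted p = 0.0014). The third gene higher in EDL was Hoxa9, at 4.42 to 11.8 FPKM in EDL and 3.01 to 4.64 in SOL (log2 0.62, SE 0.092, adjusted p = 3.2e-05).

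On the SOL side, Hoxa4 ranged from 0.885 to 1.15 FPKM in Cre+ EDL (median 1.03) and from 1.87 to 2.90 in Cre+ SOL (median 2.55), a log2 fold change of -1.33 (SE 0.12, adjusted p = 1.2e-07). Hoxd8 ranged from 2.60 to 3.41 in EDL and from 5.09 to 7.07 in SOL (log2 -1.14, adjusted p = 2.8e-08), and Hoxd9 from 1.41 to 1.64 and from 2.07 to 3.16 (log2 -0.94, adjusted p = 4.6e-07). The libraries of all 3 genes were apart between muscles. Hoxc5 (0.519 to 0.859 against 0.928 to 1.84 FPKM, log2 -0.99) did not overlap either, while Hoxc11 (2.96 to 4.78 against 4.49 to 6.96, log2 -0.72) and Hoxa6 (0.349 to 0.813 against 0.722 to 1.08, log2 -0.77) did. In all, 4 tested Hox genes lay above and 5 below in EDL with no overlap in Cre+ mice, where over all tested genes 6.62% and 7.18% did, 13.8% in all.

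The 9 genes called in Cre+ mice but not in Cre- mice were Hoxa9 and, on the SOL side, Hoxa5, Hoxb2, Hoxb3, Hoxb4, Hoxb6, Hoxb8, Hoxc4 and Hoxc8. The HoxB genes are low. Hoxb6 had 0.429 to 0.809 FPKM in Cre+ EDL and 0.641 to 1.39 in Cre+ SOL (log2 -0.73), Hoxb4 had 0.206 to 0.359 and 0.314 to 0.539 (log2 -0.72), and Hoxb3 had 0.134 to 0.291 and 0.256 to 0.526 (log2 -0.91). Hoxb2 had 0.0694 to 0.130 and 0.142 to 0.248 (log2 -1.04), on 5 to 20 counts per library, and was the 1 of them with no overlap. Hoxb8 had 0.0928 to 0.184 and 0.160 to 0.314 (log2 -0.79), Hoxc8 0.486 to 0.707 and 0.536 to 1.15 (log2 -0.57), and Hoxa5 0.966 to 1.60 and 1.14 to 2.30 (log2 -0.53). Some of these calls hung on single libraries. Hoxb8 lost its call in 6 of 24 fits that left out a library (adjusted p up to 0.124, from Cre+ EDL at 2.5, 5.5 and 8.5 days and from Cre+ SOL replicate 2 at each of them) and by DESeq2. Hoxb3 lost it without replicate 1 of Cre+ EDL at 8.5 days or replicate 2 of Cre+ SOL at 2.5 days (-0.79 and -0.75). Hoxa5 fell under the fold threshold without those 2 libraries or replicate 1 of Cre+ SOL at 8.5 days (-0.49, -0.45 and -0.49), and Hoxc8 without replicate 1 of Cre+ EDL at 2.5 days (-0.49). Over 2.5 and 8.5 days alone Hoxb8 (adjusted p = 0.0747) and Hoxa5 (log2 -0.46) were not called. In a fit of the 16 libraries of those time points Hoxb8 (adjusted p = 0.110), Hoxa5 (log2 -0.44) and also Hoxa6 (adjusted p = 0.0572) were not called, and with library size alone Hoxa5 stood at -0.48.

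Endothelial markers were also lower in Cre+ EDL than in Cre+ SOL (4 of 5, summed FPKM 81.9 to 117 against 112 to 179). So were satellite cell (4 of 6), adipocyte (4 of 5), smooth muscle (2 of 5) and slow fibre markers (8 of 8). Erythroid (5 of 5), fibroblast (2 of 8), Schwann cell (1 of 5) and fast fibre markers (6 of 9, with 1 lower) were higher. Tendon markers gave 1 of 5 in each direction and macrophage markers 0 of 5. Over all tested genes 14.5% were called higher in SOL there and 13.1% higher in EDL, and the part of these markers was not tested.

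The 4 genes called in Cre- mice but not in Cre+ mice were Hoxa7, Hoxa10, Hoxd10 and Hoxd11. Hoxa10 had 8.86 to 10.3 FPKM in Cre+ EDL and 6.15 to 8.13 in Cre+ SOL, without overlap but at a log2 fold change of 0.40 (adjusted p = 0.00048), and Hoxa7 had 3.31 to 3.84 and 1.98 to 2.84 (log2 0.47, adjusted p = 0.0070), also without overlap. Hoxd10 had 0.348 to 0.589 and 0.333 to 0.702 (log2 -0.17, adjusted p = 0.53), and Hoxd11 0.129 to 0.192 and 0.0764 to 0.244 (log2 0.52, adjusted p = 0.14). A call in 1 genotype and not in the other is no difference between them, so the difference was tested itself.

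**Figure D3:**
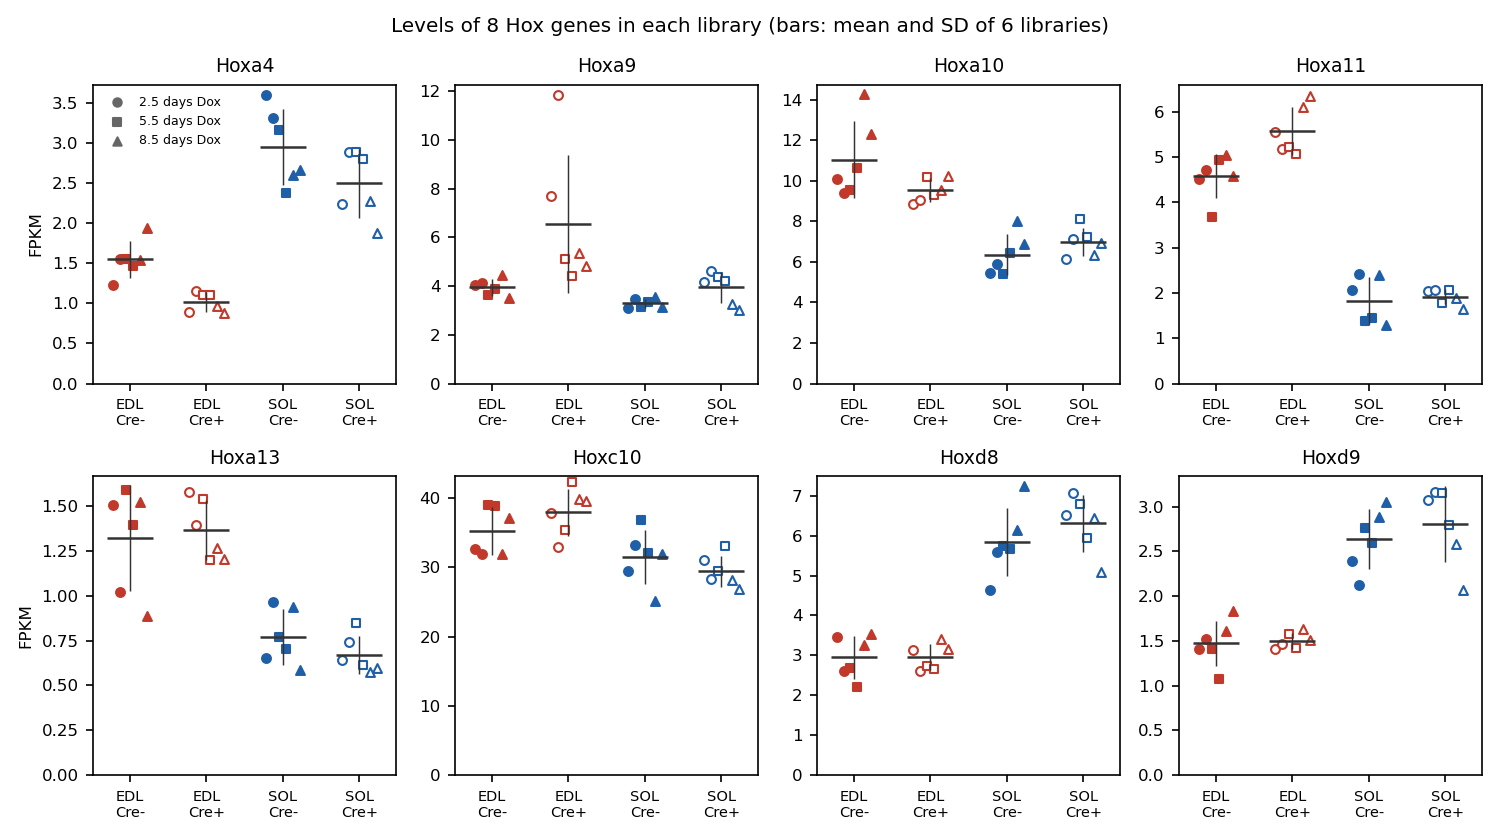
FPKM of 8 Hox genes in each of the 24 libraries, by muscle (EDL red, SOL blue) and genotype (filled Cre-, open Cre+), with the time point as the marker shape and bars for the mean and SD of 6 libraries. Hoxa11 stays at or above 3.68 FPKM in EDL and at or below 2.41 in SOL in both genotypes, and Hoxa9 reaches 7.69 and 11.8 in Cre+ EDL at 2.5 days.

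Between genotypes the EDL-SOL difference changed in 1 of the 32 Hox genes, tested at 2.5 and 8.5 days together, against 10.9% of all tested genes (6.84% upwards and 4.07% downwards). This was Hoxc4, an anterior trunk gene, whose difference was 0.63 log2 lower in Cre+ mice (SE 0.20, adjusted p = 0.0486). Over the 3 time points Cre- EDL libraries held 2.07 to 2.49 FPKM and Cre- SOL 2.24 to 3.13, while Cre+ EDL held 1.30 to 2.24 and Cre+ SOL 1.81 to 3.07. All 4 ranges overlapped with at least 1 other. The call was near the threshold and was kept in 3 of 24 fits that left out a library (adjusted p 0.0122 to 0.134), and scaling by library size or by DESeq2 size factors removed it.

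Hoxa10 passed the p threshold alone (log2 -0.46, SE 0.14, adjusted p = 0.0375), and Hoxa9 came close with the opposite sign (log2 0.48, SE 0.16, adjusted p = 0.0542). Hoxa9 was called at 0.64 with library size alone, at 0.50 with DESeq2 size factors and at 0.50 by DESeq2. For Hoxa11 the difference was 0.23 with an interval from -0.24 to 0.70, for Hoxa13 0.29 (-0.37 to 0.95), for Hoxd8 -0.32 (-0.65 to 0.02) and for Hoxd9 -0.29 (-0.64 to 0.05), so changes of up to about these bounds cannot be told from none. Hoxd10 had the most negative value, -0.94, with an interval from -1.72 to -0.17 and an adjusted p of 0.0977. In sign, 26 of the 32 Hox genes were negative, and their median was -0.31 against -0.04 over all genes.

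Of the Hox genes called between Cre+ and Cre- EDL muscles, Hoxa9 was higher in Cre+ and the others were lower. At 2.5 days 5 of 32 were called, Hoxa9 upwards and Hoxa4, Hoxb5, Hoxc4 and Hoxd4 downwards, where over all tested genes 25.1% were called, 14.6% upwards and 10.5% downwards. At 8.5 days 4 were called, Hoxa4, Hoxa5, Hoxa10 and Hoxc4, all downwards, where over all tested genes 16% were called, 7.8% upwards and 8.23% downwards. At both time points the share of Hox genes called in either direction was below that of all genes and the share called downwards was above it, and these shares were not tested against each other. The 2 time points have their own control libraries.

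Hoxa9, a gene of posterior trunk and proximal limb that is also active in satellite cells and blood progenitors, was the 1 Hox gene that rose. Cre+ EDL at 2.5 days had 7.69 and 11.8 FPKM (1186 and 1692 counts), and Cre- EDL had 4.05 and 4.13 (577 and 607 counts). Both Cre+ libraries lay above every other library of the series, where the range was 3.01 to 5.36 (log2 0.92, SE 0.16, adjusted p = 0.00033). Leaving out any library kept the call, at 0.62 to 1.14. The 250 bases before its start, at chr6:52227371-52227620 (minus strand, GRCm38.p6, RefSeq), had 49.6% GC and 3 CpG and held none of the motifs searched.
Hoxa9: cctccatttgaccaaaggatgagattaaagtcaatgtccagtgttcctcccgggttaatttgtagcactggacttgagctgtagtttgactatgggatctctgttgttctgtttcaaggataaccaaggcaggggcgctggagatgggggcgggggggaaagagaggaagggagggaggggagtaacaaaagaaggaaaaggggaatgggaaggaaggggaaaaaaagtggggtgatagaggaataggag

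At the other time points Hoxa9 was higher in Cre+ EDL without a call, at 5.11 and 4.42 against 3.64 and 3.88 FPKM at 5.5 days (log2 0.20, adjusted p = 0.82) and at 5.36 and 4.84 against 4.47 and 3.52 at 8.5 days (log2 0.15, adjusted p = 0.56). In SOL it was at 4.16 and 4.64 against 3.11 and 3.49 FPKM at 2.5 days (log2 0.25, adjusted p = 0.52), at 4.38 and 4.20 against 3.16 and 3.33 at 5.5 days (log2 0.34), and at 3.28 and 3.01 against 3.54 and 3.15 at 8.5 days (log2 -0.13). In FPKM, scaled by library total alone, both Cre+ libraries lay above both Cre- libraries in 5 of the 6 pairs of groups. At that scaling the median over all tested genes was also positive in each comparison, at log2 0.03 to 0.28. Only EDL at 2.5 days was called, and the pairs include SOL at 5.5 days, where 0 of the 4 OSKM factors were called. Whether Hoxa9 separated more often than other genes was not tested. The neighbours Hoxa7 (log2 -0.29 at 2.5 days in EDL) and Hoxa10 (-0.44, adjusted p = 0.0212) did not rise with Hoxa9.

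Hoxa4 fell at both time points in EDL. At 2.5 days Cre+ had 0.892 and 1.15 FPKM and Cre- had 1.23 and 1.55 (log2 -0.78, SE 0.21, adjusted p = 0.0102), and at 8.5 days Cre+ had 0.965 and 0.885 and Cre- 1.55 and 1.95 (log2 -1.12, SE 0.21, adjusted p = 0.0015). At 5.5 days it was at 1.11 and 1.10 against 1.56 and 1.47, without a call (log2 -0.60, adjusted p = 0.35). All 6 Cre+ EDL libraries lay below all 6 Cre- EDL libraries. The call at 2.5 days was lost without replicate 2 of Cre- EDL (log2 -0.57, adjusted p = 0.125) or replicate 1 of Cre+ EDL at that time point (log2 -0.66, adjusted p = 0.0616). In SOL its log2 values were -0.60, -0.02 and -0.39 at the 3 time points, and none was called (adjusted p at least 0.16).

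Hoxc4 fell likewise at both time points, with 1.76 and 1.30 FPKM against 2.21 and 2.49 at 2.5 days (log2 -0.94, SE 0.21, adjusted p = 0.0023) and 1.58 and 1.66 against 2.07 and 2.24 at 8.5 days (log2 -0.61, SE 0.21, adjusted p = 0.0445). The call at 8.5 days was lost in 16 of 24 fits that left out a library and with the replicate block (adjusted p = 0.113). Hoxd4 had 1.05 and 0.814 against 1.23 and 1.203 FPKM at 2.5 days (log2 -0.70, SE 0.22, adjusted p = 0.0234), and Hoxb5 had 0.254 and 0.394 against 0.407 and 0.637 (log2 -1.02, SE 0.36, adjusted p = 0.0391). The genes called downwards at 2.5 days belong to paralog groups 4 and 5, but Hoxa5, Hoxb4 and Hoxc5 of these groups were not called. Negative values were not particular to them, since 15 of the 16 tested genes of groups 1 to 6 were negative (median log2 -0.62). Hoxb5 was not called by DESeq2 and lost its call without replicate 2 of Cre- EDL (-0.63), replicate 1 of Cre+ EDL (-0.80) or replicate 2 of Cre+ EDL (-1.33, adjusted p = 0.0605) at 2.5 days. Hoxd4 lost it without either Cre- EDL library (-0.71 and -0.69) or replicate 2 of Cre+ EDL (-0.50), and Hoxc4 without replicate 2 of Cre+ EDL (-0.70, adjusted p = 0.0505).

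At 8.5 days Hoxa5, a gene of the neck and upper trunk, had 0.966 and 0.968 FPKM in Cre+ EDL and 1.38 and 1.92 in Cre- EDL (log2 -0.97, SE 0.21, adjusted p = 0.0037), while at 2.5 days it had 1.52 and 1.60 against 1.17 and 1.36, without a call (log2 -0.02). Hoxa10 had 9.53 and 10.3 FPKM in Cre+ EDL at 8.5 days and 14.3 and 12.3 in Cre- EDL (log2 -0.62, SE 0.14, adjusted p = 0.0043). These 2 control libraries were the highest of the 6 Cre- EDL libraries, the others lying between 9.40 and 10.6. In FPKM, scaled by library total alone, the Cre+ values were thus within the range of the other controls. The test used TMM scaling, with factors of 1.15 and 1.07 for these Cre+ libraries and 0.852 to 0.957 for the other controls. On that scale the Cre+ values are lower and those controls higher, so the FPKM overlap does not carry over to the test. Without replicate 1 of Cre+ EDL at 8.5 days both genes lost their calls (Hoxa5 -0.90, adjusted p = 0.056, and Hoxa10 -0.50, adjusted p = 0.0964). Hoxa11 was at 6.10 and 6.35 against 5.05 and 4.57 FPKM at 8.5 days, without a call (log2 0.17, adjusted p = 0.65), and Hoxc10 at 39.8 and 39.6 against 31.9 and 37.1 (log2 below 0.01 in size).

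The sizes of these falls depend on the scaling. TMM scaling lowered the median fold change of all genes in Cre+ EDL to -0.04 at 2.5 and 8.5 days, where library size alone gave 0.28 and 0.16, which is also why a gene can be higher in FPKM and near 0 in the test. With library size alone 2 Hox genes were called at 2.5 days, Hoxa9 at 1.26 and Hoxc4 at -0.62, and Hoxa4 stood at -0.45, and 2 were called at 8.5 days, Hoxa4 at -0.92 and Hoxa5 at -0.77. Relative to the median of all genes, 27 of the 32 Hox genes were lower at 2.5 days and 28 at 8.5 days under both scalings. In absolute sign 28 were negative at 2.5 days with TMM and 22 with library size alone, and 29 and 24 at 8.5 days.

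At 5.5 days, whose libraries the study left out as outliers, edgeR called 0 Hox genes in EDL, where over all tested genes 0.304% were called, with 2 Hox genes at an unadjusted p under 0.05 (8.44% of all genes). In SOL muscles edgeR called 0 Hox genes at 2.5, 5.5 and 8.5 days, where over all tested genes 0.724%, 0.0% and 0.685% were called. At an unadjusted p under 0.05 there were 3, 4 and 3 Hox genes, and 14.9%, 3.86% and 7.04% of all genes. DESeq2 also called 0 in each of the 4 comparisons. The Hox log2 values in SOL ran from -0.72 to 0.94 at 2.5 days and from -0.74 to 0.96 at 8.5 days and did not pass the test. The highest values belonged to genes of low level, Hoxd10 at 2.5 days (0.94, SE 0.38, adjusted p = 0.245) and Hoxb8 at 8.5 days (0.96, SE 0.54, adjusted p = 0.79). The lowest adjusted p in SOL was 0.156, for Hoxa4 at 2.5 days (2.24 and 2.89 against 3.60 and 3.31 FPKM).

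**Figure D4:**
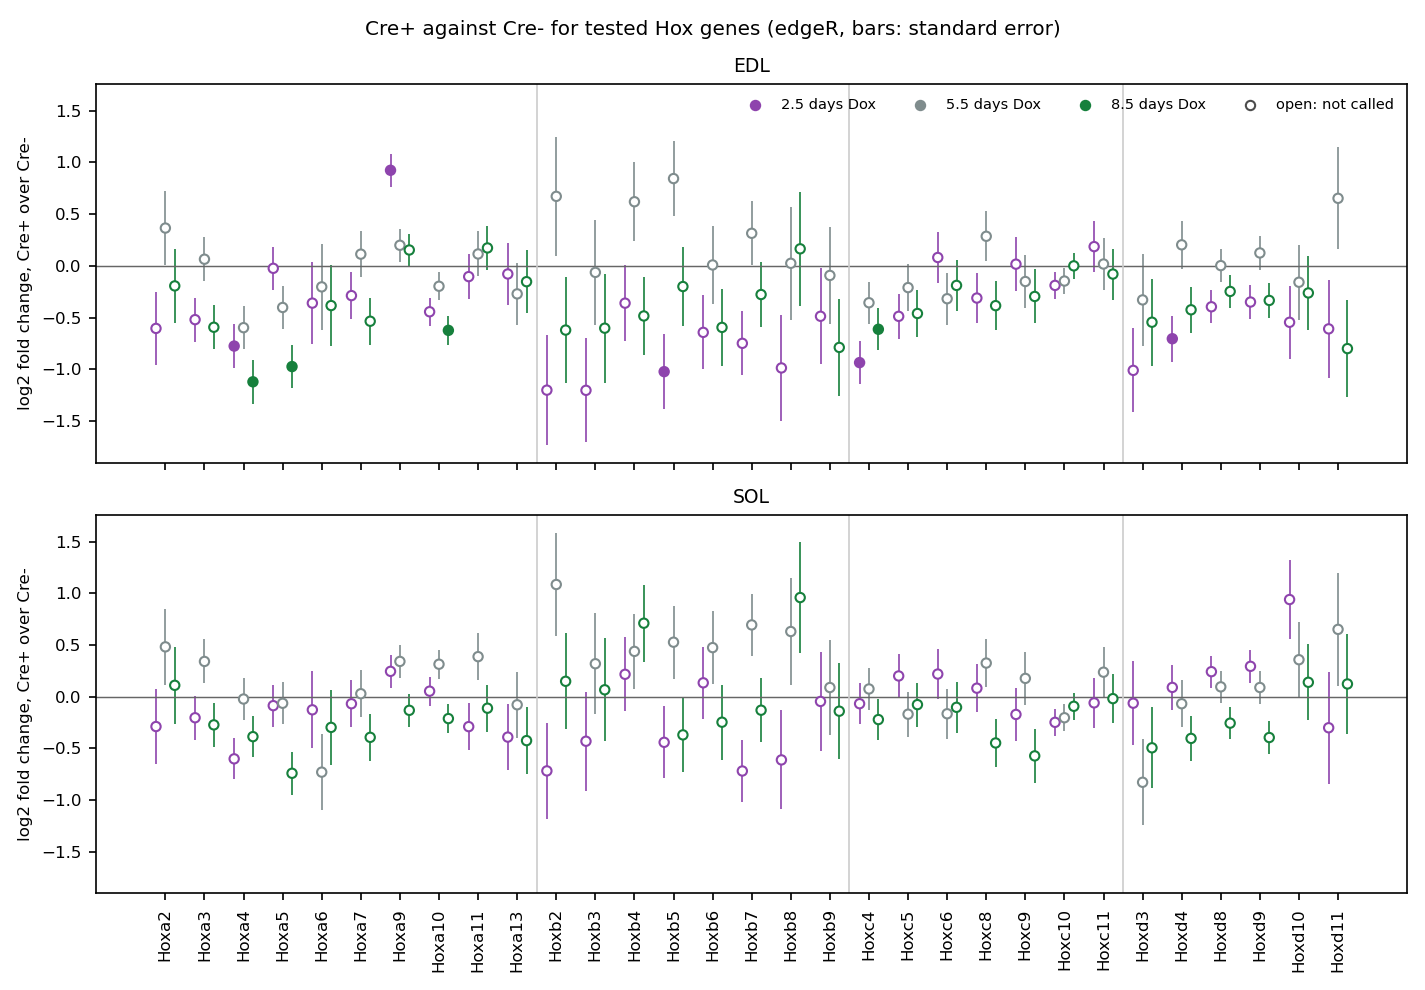
Log2 fold change of Cre+ over Cre- for tested Hox genes in EDL (top) and SOL (bottom), ordered by cluster (grey lines) and paralog group, at 2.5 (purple), 5.5 (grey) and 8.5 (green) days of Dox, with bars for the standard error; filled points are called. Hoxa9 in EDL at 2.5 days stands at 0.92, the other 8 filled points are negative, and none is filled in SOL.

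Markers of other cell types were set beside the Hox changes in EDL. At 2.5 days 2 of 5 endothelial markers and 1 of 5 smooth muscle markers were lower in Cre+ (summed FPKM 89.9 to 95.8 against 108 to 114 and 141 to 147 against 160 to 173). Markers of satellite cells, fibroblasts, Schwann cells and macrophages gave 0 calls by edgeR at both time points, with sums of 18.5 to 27.5 against 20.5 to 20.6 FPKM for satellite cells at 2.5 days and 25.0 to 26.9 against 20.8 to 22.5 at 8.5 days. Fast fibre genes were lower in 4 of 9 at 2.5 days and 2 of 9 at 8.5 days. Over all tested genes 10.5% and 8.23% were called downwards. Tendon, adipocyte, erythroid and slow fibre lists gave 0 calls by edgeR. At 8.5 days several sums did not overlap between the 2 Cre+ and 2 Cre- EDL libraries, in FPKM scaled by library total alone. At that scaling the median over all tested genes was also higher in Cre+, by log2 0.16. How often such sums separate by chance was not tested. Tendon markers summed to 792 to 915 FPKM in Cre+ and 471 to 581 in Cre-, fibroblast markers to 1464 to 1942 and 1217 to 1269, and endothelial markers to 114 to 117 and 109 to 110.2. Schwann cell markers were at 63.8 to 70.4 in Cre+ and 72.7 to 113 in Cre-, and smooth muscle markers at 148 to 155 and 161 to 178. In the test with TMM scaling these lists gave 0 calls at 8.5 days. Their median log2 values were 0.34 for tendon, 0.06 for fibroblasts, -0.15 for endothelium, -0.67 for Schwann cells and -0.38 for smooth muscle. The part of all these markers in the Hox values was not tested.

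Among the cofactors of Hox proteins, 8 of 9 listed TALE genes were tested. In Cre- mice 1 was higher in EDL and 2 in SOL, where over all tested genes 24.9% were called. Pbx3 was at 1.29 to 1.81 FPKM in EDL and 0.679 to 1.19 in SOL (log2 0.74, adjusted p = 3.1e-05) and Meis1 at 0.720 to 0.985 and 1.66 to 2.28 (log2 -1.13, adjusted p = 7.7e-08). Neither gene overlapped between muscles. Pbx3 was also called higher in Cre+ EDL at 2.5 days (log2 1.39, adjusted p = 3.8e-05) and 8.5 days (1.09, adjusted p = 0.00061), but not at 5.5 days. Over the 6 Cre+ EDL libraries of all time points it ranged from 1.40 to 5.10 FPKM, the low end inside the Cre- EDL range. The EDL-SOL difference of Pbx3 grew by 1.28 (adjusted p = 0.00048). Pknox2 fell in Cre+ EDL at 2.5 days (log2 -0.64, adjusted p = 0.0144).

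Of the other limb patterning genes listed, 22 were tested, with 8 higher in EDL and 8 higher in SOL in Cre- mice, and the same counts in Cre+ mice. Over all tested genes 24.9% were called in Cre- mice and 27.7% in Cre+ mice. En1, a ventral limb gene, was at 0.100 to 0.369 FPKM in Cre- EDL and 4.04 to 4.54 in Cre- SOL (log2 -4.42, adjusted p = 9.4e-11). Tbx3 (log2 -2.21) and Tbx4 (-1.35) were also higher in SOL. Irx5 (3.45), the dorsal limb gene Lmx1b (2.82), Tbx15 (1.41), Eya1 (1.25) and Shox2 (1.03) were higher in EDL, which lies in the dorsal compartment of the leg. Isl1 had at most 1 count in a Cre- EDL library and 3 to 11 in Cre- SOL, for which no fold is given. In Cre+ EDL 5 of the 22 were called at 2.5 days and 5 at 8.5 days, all downwards. The share called downwards over all tested genes was 10.5% at 2.5 days and 8.23% at 8.5 days. Among the called limb genes, the mesenchymal limb gene Prrx1 (-0.87 and -1.02), Tbx15 (-0.98 and -0.93) and Lbx1 (-0.80 and -0.62) fell at both time points. Tbx2 (-0.97) fell at 2.5 days and Eya1 (-0.77) at 8.5 days. Irx5, Tbx15 and Eya1 also differed between genotypes in their EDL-SOL difference (1.40, -0.77 and -0.67), where over all tested genes 10.9% were called.

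Of the chromatin regulators known to act on Hox clusters, 28 were tested. In Cre- mice 1 was higher in EDL (Kat6a, log2 0.50) and 3 in SOL, among them the Polycomb gene Cbx2 (-0.79) and the MLL complex gene Ash2l (-0.57). Over all tested genes 24.9% were called between the muscles. In Cre+ EDL 3 rose and 3 fell at 2.5 days and 3 fell at 8.5 days. Over all tested genes 14.6% rose and 10.5% fell at 2.5 days, and 8.23% fell at 8.5 days. Those that fell include the Polycomb genes Phc1 (-0.96 at 2.5 days), Suz12 (-0.75 at 8.5 days) and Jarid2 (-0.51 and -0.52), and the 3 that rose are not named here. Inside the HoxC cluster the antisense RNA Hotair, which lies between Hoxc12 and Hoxc11, was at 0.297 to 0.543 FPKM in Cre- EDL and 1.05 to 1.82 in Cre- SOL, without overlap (log2 -1.64, SE 0.16, adjusted p = 3.8e-07), and in Cre+ mice its log2 fold change was -1.86. Hotair and the 2 nearest coding genes with enough counts, Hoxc11 and Hoxc10, thus had log2 values of -1.64, -0.70 and 0.25 in Cre- mice. For Hoxa11os the EDL-SOL difference was larger in Cre+ mice by 0.86 (SE 0.23, adjusted p = 0.0209), where for Hoxa11 itself it was not called (0.23).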

How the data were processed

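Total RNA of whole EDL and SOL muscles was extracted with Trizol, made into stranded poly(A) libraries and sequenced as single reads. Per the labels, the authors checked reads with FastQC 0.11.2, aligned them to mm10 with STAR 2.5.3a and used HOMER to count unique alignments over the exons of RefSeq genes, which gave the deposited raw counts (the counting strand setting is not given in the sources used here). Hox genes were taken by symbol. Of the 39, 10 overlap another gene of the table. Counts were tested with edgeR 4.0.16 (R 4.3.3, quasi-likelihood test, TMM scaling, filterByExpr, 2-sided, Benjamini-Hochberg over all 15478 genes tested) in a single fit of 24 libraries in 12 groups. DESeq2 1.42.0, other scalings, filters and thresholds, and leaving out each library were alternatives, and the code was tested on simulated data. The study's own test of each time point on its own libraries was not used. Same-numbered EDL and SOL libraries deviated together in 6 of 6 groups (r 0.173 to 0.445). The labels do not say whether the same number means the same mouse. The EDL-SOL p-values come from the fit without pairing, and the fit with the replicate block was an alternative. Named were all Hox genes called in any comparison, the 3 most abundant, label and limb checks, called members of the TALE, limb patterning and regulator lists (up to 6 per list) and called rows inside the clusters. The Hox family and the lists were picked with earlier results of these data known, while membership follows symbols alone. Totals of 36088781 to 54679082 counts set the precision. Some genes that the rules name are not reported here.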

Additional observations from a re-analysis of the deposited data

Results flagged for a closer look

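Hoxc8 in Cre- SOL muscles had its highest value, 1.03 FPKM, in replicate 2 at 2.5 days, while the other 5 libraries lay between 0.736 and 0.806. Hoxd11 in Cre+ SOL muscles had its highest value, 0.244 FPKM, in replicate 2 at 8.5 days, with the others between 0.0764 and 0.108. Each library stood apart from the rest of its group by Dixon's criterion, in 2 of 100 groups of 6 libraries examined, where chance gives about 1 in 20. The EDL-SOL difference of Hoxc4 was lower in Cre+ than in Cre- mice by a test of the difference itself (log2 -0.63, adjusted p = 0.0486 by edgeR).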

How the results depend on the processing

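No result for the Hox genes called above reversed its direction in the alternatives run. With a log2 fold change over 1 the calls fell to 1 Hox gene for EDL against SOL in Cre- mice and 4 in Cre+ mice, 0 for the difference between genotypes, and 1 each for Cre+ against Cre- in EDL at 2.5 and 8.5 days. Library size alone gave 2 calls in EDL at 2.5 days and 2 at 8.5 days, and a fit of the 12 libraries of 1 muscle gave 3 at 2.5 days. The difference between genotypes gave 2 calls by adjusted p alone and 2 by DESeq2, and 0 with no filter on low counts or with the 16 libraries of 2.5 and 8.5 days. Leaving out each library gave 10 to 13 calls for EDL against SOL in Cre- mice, 15 to 20 in Cre+ mice, 0 to 3 for the difference, 2 to 5 in EDL at 2.5 days, 1 to 4 in EDL at 8.5 days, and 0 in the other comparisons. The count at 2.5 days was 2 without replicate 2 of Cre+ EDL and 3 without replicate 2 of Cre- EDL at that time point, and at 8.5 days it was 1 without replicate 1 of Cre+ EDL. The replicate block gave 12 calls in Cre- mice, 18 in Cre+ mice, 1 for the difference, 5 in EDL at 2.5 days and 3 at 8.5 days. Same-numbered Cre+ and Cre- libraries did not deviate together (r -0.169 to 0.0578), so for those comparisons the numbers are only names. The cause of these shifts was not tested. Genes with few counts, such as Hoxb2, Hoxb8, Hoxd10 and Hoxd11, are limited by depth.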
